A study of Homo sapiens with 6 samples.

Results

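Serine is made from the glycolytic intermediate 3-phosphoglycerate by a short cytosolic pathway, and its side-chain carbon is then passed to tetrahydrofolate to give the one-carbon units used for purines, thymidylate and methionine. The folate reactions run in parallel in mitochondria and in the cytosol, catalysed by separate isoenzymes. In proliferating cells the mitochondrial branch usually oxidises serine to formate, which leaves the organelle and is taken up by the cytosolic branch. The 9 transcripts described here are those whose gene name in the deposited tables is *PHGDH*, *PSAT1* or *PSPH* (serine synthesis), *SHMT2*, *MTHFD2*, *MTHFD1L* or *MTHFD2L* (mitochondrial folate enzymes), or *SHMT1* or *MTHFD1* (cytosolic folate enzymes). Each name matched a single row, so that 9 of the 58735 genes in the table were members, and all 9 passed the expression filter.

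RNA was sequenced from H2452, an established pleural mesothelioma (PM) cell line, cultured in RPMI-1640 with serum. The control group (sgCtrl, n = 3) was labelled wild type and received a scrambled guide RNA, and the *NF2*-KO group (sg*NF2*-1, n = 3) received 1 guide RNA against *NF2*, a tumour suppressor upstream of the Hippo pathway. Both groups carried Cas9 and mCherry from a lentiviral vector and were sorted for mCherry after infection, so they were sorted populations rather than described clones. The study's methods describe its replicates in general as biological. The labels do not say whether these libraries came from separate cultures, so p-values measure only the spread between these libraries.

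The libraries held 14782423 to 17416463 counted reads. *NF2* stood at 73.7, 72.9 and 67.5 CPM (counts scaled to a common TMM-adjusted library total) in the controls and at 39.3, 52.0 and 41.4 CPM in the targeted cells, a log2 fold change of -0.69 ± 0.10 (SE; edgeR adjusted p = 7.9e-06). All 3 libraries labelled sg*NF2*-1 lay below all 3 controls, while the transcript of the targeted gene was still present. Of 8 mesothelial markers, all tested, 2 were higher (*MSLN* and *KRT18*) and 3 lower (*WT1*, *PDPN* and *KRT19*) at an edgeR adjusted p under 0.05. By this criterion 17.7% of all tested genes were higher and 16.6% lower. The mesothelial defining marker *CALB2* had 40 to 74 counts per library. Of 6 markers of blood, endothelial and epithelial cells, *PTPRC* was at 0 in every library. The 6 summed to 6.39 to 8.71 CPM for sgCtrl but 2.46 to 3.56 CPM for sg*NF2*-1, and endothelial *PECAM1* fell (log2 fold change -2.28). *PECAM1* made up most of the sgCtrl sum. The other endothelial marker, *CDH5*, did not fall (log2 fold change 0.37, adjusted p = 0.53, edgeR). Only these 2 of the 6 had enough counts to be tested, and they moved in opposite directions. The part of these marker differences in the results below was not tested. In bulk RNA, fewer cells of a type and less RNA per cell cannot be told apart.

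Short stretches around RefSeq transcript starts are shown for enzyme genes that rose and for enzyme genes that did not. Each stretch shows a chosen match, so the motif shown differs between genes and other matches are left out. *MTHFD2L*, whose windows held none of the motifs searched, has no stretch. RefSeq promoter windows (GRCh38.p14, 250 bases before to 50 bases after a transcript start) were found for 7 of the 9 genes, in 11 windows, and those of *PSPH* and *SHMT2* were not analysed here. The search covered both strands for TGATGNAA (the core of the C/EBP-ATF response element, which binds ATF4, a known activator of serine synthesis genes), CACGTG (the E-box, bound by MYC and USF factors), GGAATG (the motif of TEAD factors, the partners of YAP) and CCAAT (bound by NF-Y), the last of which was chosen after the sequences were seen. In the stretches below, each of 30 bases and written 5′ to 3′ on the strand of the gene, the capitals mark the matched motif. Those of *PHGDH*, *MTHFD1L* and *MTHFD1* lie inside the gene spans given with their values, which start farther upstream, and that of *MTHFD1* runs past its transcript start.
*PHGDH* (chr1:119711851-119711880, plus strand): gagtatttccgtCCAATcaaaaggagactg
*PSAT1* (chr9:78297061-78297090, plus strand): cgacagcacgggCCAATggggcgccgactc
*MTHFD2* (chr2:74198529-74198558, plus strand): atgcggcagggaCCAATgggtggcggaggg
*MTHFD1L* (chr6:150866346-150866375, plus strand): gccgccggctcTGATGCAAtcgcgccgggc
*SHMT1* (chr17:18363609-18363638, minus strand): gctgcgccgcagCCAATagcgcgggtgcgt
*MTHFD1* (chr14:64388326-64388355, plus strand): ccagtccctaagCACGTGggttgggttgtc

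*MTHFD1L* was the only 1 of the 7 genes whose windows held TGATGNAA, which 3.62% of all 35116 RefSeq windows hold. The E-box was in the windows of 2 genes, *MTHFD1L* and *MTHFD1*, against 7.26% of all windows. GGAATG was in none of the 7, against 14% of all windows. CCAAT was in 6 of the 7 (34.6% of all windows), in *PHGDH*, *PSAT1*, *MTHFD2* and *MTHFD1L* as well as in *SHMT1* and *MTHFD1*. These matches describe the letters in these windows only, and a gene with several windows, such as *MTHFD1L*, had more sequence in which to match. Annotated exons reach into the bases just upstream of the start for every gene of the 7 except *PSAT1*.

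Relative to sgCtrl, 6 of the 9 transcripts rose in sg*NF2*-1 and none fell at an edgeR adjusted p under 0.05. All 3 serine synthesis transcripts rose, as did 3 of the 4 mitochondrial folate transcripts (*SHMT2*, *MTHFD2* and *MTHFD1L*), with log2 fold changes from 0.73 to 1.31. Neither cytosolic transcript passed the test, and *MTHFD2L*, the low-abundance mitochondrial paralogue of *MTHFD2*, did not either. Over all 14179 tested genes, 17.7% were higher by this criterion and 16.6% were lower (34.3% in either direction). With the thresholds of the study (p under 0.05, taken as unadjusted, and a log2 fold change above 0.5), the same 6 were called, where 9.22% of tested genes were, and with the adjusted p in its place 8.42% were. The 6 also had every sg*NF2*-1 library above every sgCtrl library, as did 23.2% of tested genes (45.3% had no overlap in either direction), and the other 3 overlapped. The median log2 fold change came to 0.81 over the 9 transcripts and -0.0025 over all tested genes.

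**Figure D1:**
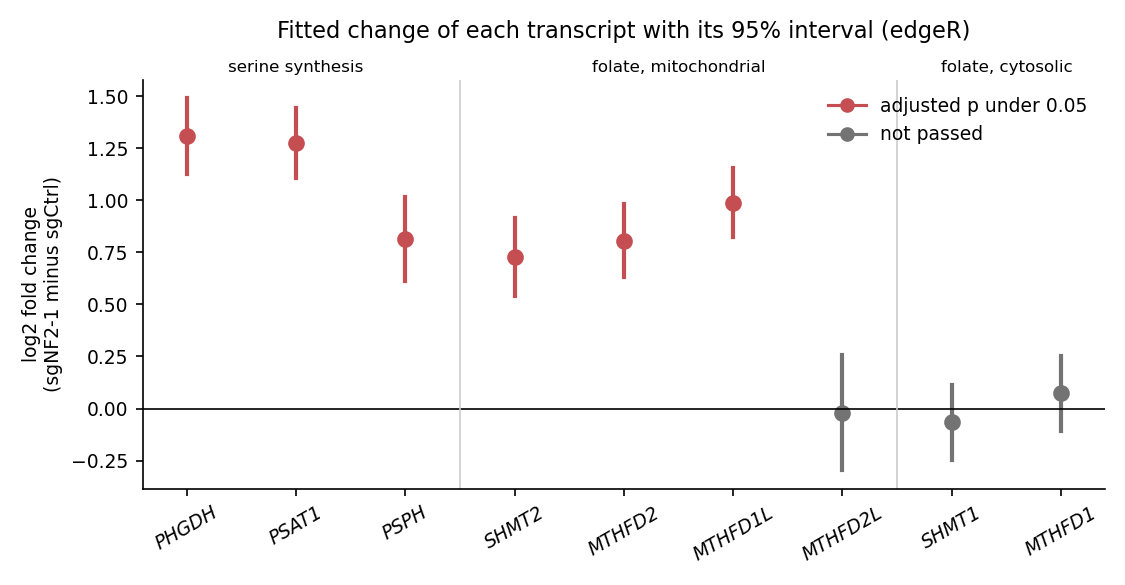
Log2 fold change of each enzyme transcript (y axis, sgNF2-1 minus sgCtrl, edgeR) with its 95% interval as a vertical line, grouped by pathway position on the x axis. The 6 points in red passed an adjusted p of 0.05 and lie between 0.73 and 1.31, while the intervals of *MTHFD2L*, *SHMT1* and *MTHFD1* in grey include 0.

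*PHGDH* (ENSG00000092621, chromosome 1 of GRCh38, 119648411 to 119744226) encodes phosphoglycerate dehydrogenase, the entry enzyme of serine synthesis. The controls gave 2879, 2871 and 2838 reads, and the sg*NF2*-1 libraries 7152, 6764 and 7181. In normalised units these were 182.7, 174.9 and 187 CPM against 406.4, 438.2 and 504.3 CPM. The groups lay far apart, although sg*NF2*-1 replicate 3 stood above the other 2 libraries of its group. Mean expression was 181.5 ± 6.13 CPM and 449.6 ± 49.9 CPM (SD, n = 3 each), 2.48-fold apart. The log2 fold change came to 1.31 ± 0.09 (SE; edgeR adjusted p = 3.0e-11), the 169th largest of the 14179 tested genes. Without sg*NF2*-1 replicate 3 it was 1.22.

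*PSAT1* (ENSG00000135069, chromosome 9, 78297143 to 78330093) encodes phosphoserine aminotransferase, which takes the amino group for serine from glutamate. Its reads numbered 1389, 1367 and 1363 without targeting and 3667, 3387 and 2908 with it. The corresponding values were 88.1, 83.3 and 89.8 CPM against 208.4, 219.4 and 204.2 CPM. Here the sg*NF2*-1 libraries lay close together, and replicate 3 was the lowest of them rather than the highest. The means were 87.1 ± 3.39 and 210.7 ± 7.87 CPM (SD, n = 3 each), 2.42-fold apart, with a log2 fold change of 1.27 ± 0.08 (SE; edgeR adjusted p = 1.1e-11).

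*PSPH* (ENSG00000146733, chromosome 7, 56011051 to 56051604) encodes phosphoserine phosphatase, which releases serine in the final step. Reads rose from 432, 482 and 459 per sgCtrl library to 859, 809 and 737 per sg*NF2*-1 library. This corresponded to 27.4, 29.4 and 30.2 CPM against 48.8, 52.4 and 51.8 CPM. It was the least abundant of the 3 transcripts in every library, and its groups did not overlap. The log2 fold change came to 0.81 ± 0.10 (SE; edgeR adjusted p = 4.2e-07), with a 95% interval of 0.61 to 1.01 that lies below the intervals of *PHGDH* (1.13 to 1.49) and *PSAT1* (1.11 to 1.44). The difference in change between the 3 transcripts was not tested.

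*SHMT2* (ENSG00000182199, chromosome 12, 57229327 to 57234935) encodes the mitochondrial serine hydroxymethyltransferase, which splits serine into glycine and a folate-bound one-carbon unit. It had 345.3, 363 and 393.4 CPM in sgCtrl and 549.3, 585.6 and 688.9 CPM in sg*NF2*-1. It had the most counts of the 9 transcripts in every library, and the lowest sg*NF2*-1 library lay well above the highest control. As for *PHGDH*, sg*NF2*-1 replicate 3 was the highest. Means were 367.2 ± 24.3 CPM for controls and 607.9 ± 72.4 CPM for *NF2*-KO cells (SD, n = 3 each). The log2 fold change came to 0.73 ± 0.09 (SE; edgeR adjusted p = 8.0e-07), and 0.63 without sg*NF2*-1 replicate 3.

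*MTHFD2* (ENSG00000065911, chromosome 2, 74198562 to 74217565) encodes the mitochondrial methylenetetrahydrofolate dehydrogenase and cyclohydrolase, which acts on the product of SHMT2. The 3 controls held 1237, 1275 and 1374 reads, compared with 2566, 2277 and 1964 in *NF2*-KO cells. The values were 78.5, 77.7 and 90.5 CPM against 145.8, 147.5 and 137.9 CPM. The highest control, replicate 3, remained clearly below the lowest sg*NF2*-1 library. The log2 fold change came to 0.81 ± 0.09 (SE; edgeR adjusted p = 6.1e-08).

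*MTHFD1L* (ENSG00000120254, chromosome 6, 150865549 to 151101887) encodes the mitochondrial formyltetrahydrofolate synthetase, which releases formate at the end of the mitochondrial branch. It is also the gene whose windows held both TGATGCAA and CACGTG. It had 70.6, 71.2 and 72.1 CPM in sgCtrl and 138.9, 146.2 and 139.4 CPM in sg*NF2*-1, the tightest control values among the 6 transcripts that rose, relative to their mean. The mean went from 71.3 ± 0.742 to 141.5 ± 4.10 CPM (SD, n = 3 each), or 1.98-fold. Its log2 fold change of 0.99 ± 0.08 (SE; edgeR adjusted p = 8.2e-10) was the largest of the folate enzymes described here.

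*MTHFD2L* (ENSG00000163738, chromosome 4, 74114174 to 74303099) encodes a second mitochondrial dehydrogenase and cyclohydrolase, better known from embryonic and adult tissues than from proliferating cells. Counts were low throughout, at 211, 232 and 206 for sgCtrl and 210, 211 and 214 for sg*NF2*-1. Its libraries ranged from 13.4 to 14.1 CPM in sgCtrl and from 11.9 to 15.03 CPM in sg*NF2*-1, with the control range inside the other. The log2 fold change came to -0.02 ± 0.13 (SE; edgeR adjusted p = 0.93), and its 95% interval of -0.30 to 0.25 lies below the intervals of the other 3 mitochondrial transcripts, the lowest of which starts at 0.54.

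The cytosolic enzymes gave values near 0. *SHMT1* (ENSG00000176974, chromosome 17, 18327860 to 18363563), the cytosolic serine hydroxymethyltransferase, had 60.7, 57.5 and 61.9 CPM in sgCtrl and 58.4, 56.2 and 57.5 CPM in sg*NF2*-1. Its log2 fold change came to -0.07 (95% interval -0.25 to 0.11, adjusted p = 0.60, edgeR). *MTHFD1* (ENSG00000100714, chromosome 14, 64388031 to 64463457) encodes the trifunctional cytosolic enzyme that carries the dehydrogenase, cyclohydrolase and formyltetrahydrofolate synthetase activities in 1 protein. It had 60.5, 62.8 and 68.4 CPM in sgCtrl and 66.9, 68.5 and 66.1 CPM in sg*NF2*-1, with a log2 fold change of 0.07 (95% interval -0.11 to 0.25, adjusted p = 0.56, edgeR). The groups overlapped for both genes, and both upper bounds lie below the lower bounds of the 6 transcripts that rose.

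Reads shared with other genes bear mainly on the cytosolic pair, since the sources do not say whether counting used strand. *SHMT1* overlaps *SMCR8* on the opposite strand, a gene with 83.4% as many counts as *SHMT1* and a log2 fold change of 0.06 (adjusted p = 0.73, edgeR). *MTHFD1* overlaps *ZBTB25* on the opposite strand, which had 16.8% as many counts and a log2 fold change of -0.07 (adjusted p = 0.77, edgeR). For the 6 transcripts that rose, each overlapping gene had at most 0.924% of the member's counts. The table also lists 14 pseudogenes named after the members, of which 11 had no count in any library and none had more than 3 counts in a library.

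Levels were compared between genes as FPKM, which divides by the gene model length the table lists (for example 9217 bases for *PHGDH* and 2188 bases for *PSAT1*). The order below rests on these lengths. In CPM, which does not divide by length, the sgCtrl mean of *PHGDH* (181.5) was above that of *PSAT1* (87.1). Likewise *MTHFD1* (63.9 CPM, 9377 bases) lay close to *MTHFD1L* (71.3 CPM, 5021 bases) in sgCtrl. In sgCtrl the order was *SHMT2* at 71.9 ± 4.69 FPKM, *PSAT1* at 37.7 ± 1.41, *PHGDH* at 18.7 ± 0.602, *MTHFD2* at 16.002 ± 1.38, *MTHFD1L* at 13.5 ± 0.129, *PSPH* at 9.95 ± 0.494, *SHMT1* at 7.82 ± 0.286, *MTHFD1* at 6.46 ± 0.405 and *MTHFD2L* at 1.32 ± 0.0391 FPKM (SD, n = 3 each). No neighbours in this order overlapped between their libraries. The order was the same in sg*NF2*-1, where *SHMT2* was at 118 ± 13.9, *PSAT1* at 90.4 ± 3.61, *PHGDH* at 45.8 ± 5.04 and *MTHFD2L* at 1.295 ± 0.148 FPKM (SD, n = 3 each). There the libraries of *MTHFD2* (27.7 ± 1.04 FPKM) and *MTHFD1L* (26.5 ± 0.835 FPKM) overlapped, and those of the other neighbours did not. The limma test on log2(FPKM + 1), on which changes of weakly expressed genes look smaller, also passed for the same 6 transcripts, with differences from 0.70 to 1.25 and adjusted p-values of at most 0.0017, where 14.3% of 13038 genes were higher.

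**Figure D2:**
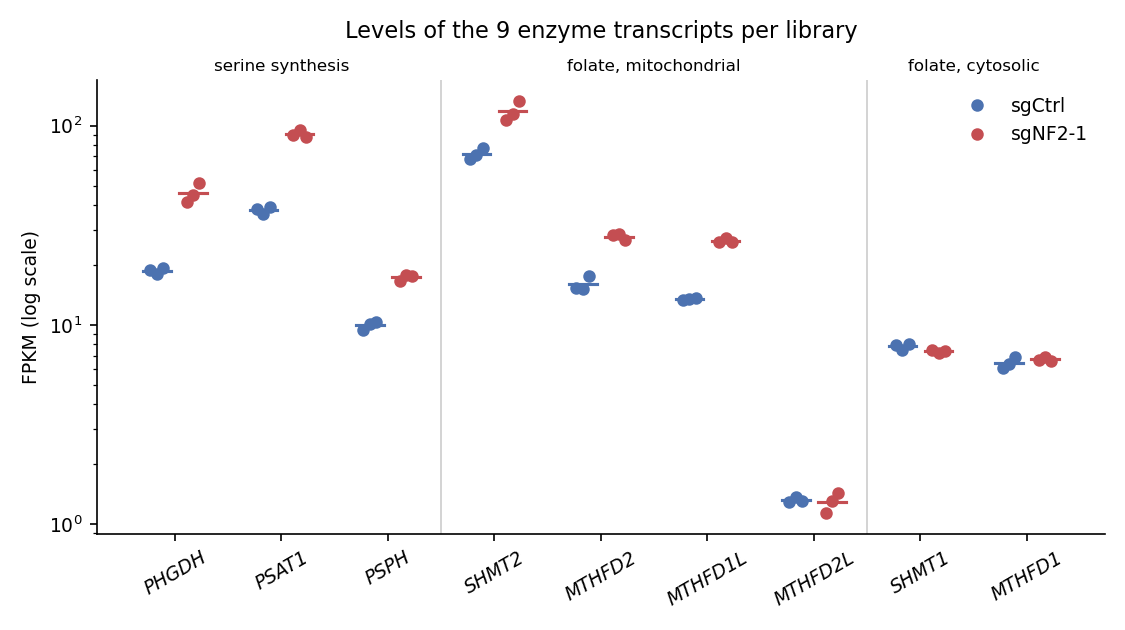
FPKM of the 9 transcripts (y axis, log scale) in the 3 sgCtrl libraries (blue) and the 3 sgNF2-1 libraries (red), with 1 point per library and a horizontal bar at the group mean, grouped by pathway position. The red points stand above the blue ones for all 3 serine synthesis genes and for *SHMT2*, *MTHFD2* and *MTHFD1L*, and the groups overlap for *MTHFD2L*, *SHMT1* and *MTHFD1*.

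Whether the 2 compartments changed unequally was asked from ratios within each library, which do not depend on how libraries are scaled. The level of each ratio depends on the gene model lengths, but its change between groups does not. Ratios of raw counts gave the same log2 differences. The ratio of *SHMT2* to *SHMT1* in FPKM was 8.56, 9.50 and 9.56 in the sgCtrl libraries and 14.2, 15.7 and 18.0 in the sg*NF2*-1 libraries. Mitochondrial *SHMT2* was thus the more abundant in every library, and its excess was 1.73 times as large in sg*NF2*-1. The log2 ratio moved from 3.20 ± 0.0894 to 3.99 ± 0.175 (SD, n = 3 each), a difference of 0.79. From the edgeR fits, the log2 fold changes of the 2 genes differed by 0.79 (combined standard error 0.13, 95% interval 0.53 to 1.05, with the genes taken as independent).

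For the formate-releasing step, the ratio of *MTHFD1L* to *MTHFD1* was 2.18, 2.12 and 1.97 in sgCtrl and 3.88, 3.99 and 3.94 in sg*NF2*-1, an increase of 1.88 times. For the dehydrogenase step, the ratio of *MTHFD2* to *MTHFD1* was 2.499, 2.38 and 2.55 in sgCtrl and 4.19, 4.15 and 4.02 in sg*NF2*-1, an increase of 1.66 times. Both of these ratios were close to constant within each group and did not overlap between groups. The differences in edgeR log2 fold change were 0.92 (95% interval 0.67 to 1.16) for *MTHFD1L* against *MTHFD1* and 0.73 (95% interval 0.48 to 0.98) for *MTHFD2* against *MTHFD1*. *MTHFD1* is the partner in both, so these 2 ratios share its values.

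Within the mitochondria, *MTHFD2* exceeded its paralogue *MTHFD2L* by 11.8, 11.1 and 13.5 times in sgCtrl and by 24.6, 21.8 and 18.5 times in sg*NF2*-1. This ratio also did not overlap between groups, and its edgeR difference was 0.83 (95% interval 0.50 to 1.15). Each of the 4 ratios had the smallest p that 3 libraries against 3 allow (two-sided exact permutation test, p = 0.10, and 0.10 adjusted over the 4 pairs), so the permutation test could not have passed 0.05.

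**Figure D3:**
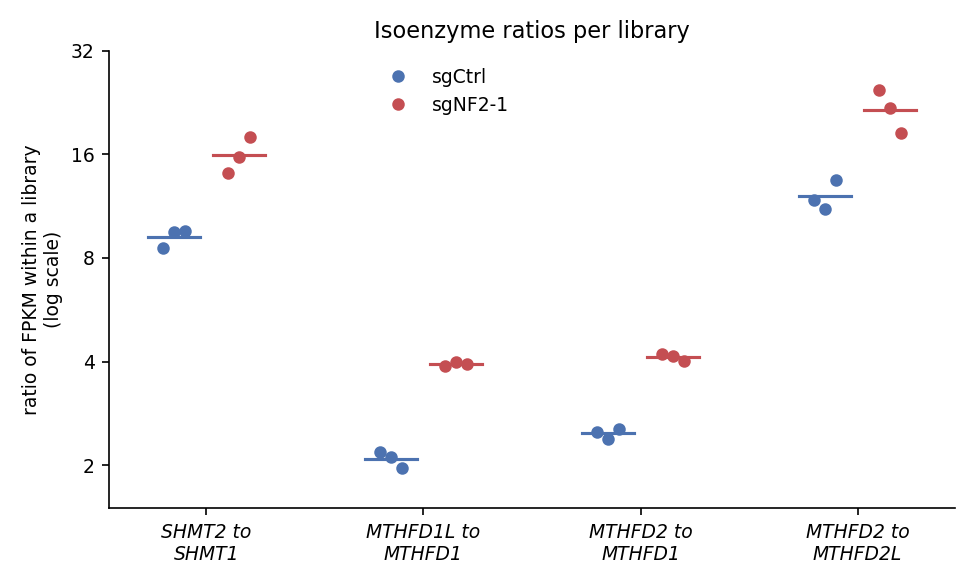
Ratio of FPKM within a library (y axis, log scale) for 4 pairs of folate enzymes, with 1 point per library, sgCtrl in blue and sgNF2-1 in red, and a bar at the geometric mean. In every pair the 3 sgNF2-1 ratios lie above the 3 sgCtrl ratios, with *MTHFD1L* to *MTHFD1* going from 1.97 to 2.18 up to 3.88 to 3.99.

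Summed over the 4 mitochondrial enzymes, the libraries held 97.5, 101.2 and 109.4 FPKM in sgCtrl and 161.7, 171.3 and 187.5 FPKM in sg*NF2*-1. The 2 cytosolic enzymes together held 13.9 to 14.95 FPKM in sgCtrl and 14.0 to 14.2 FPKM in sg*NF2*-1. The mitochondrial share of the 6 folate transcripts was therefore 87.4% to 88.0% in sgCtrl and 91.9% to 93.0% in sg*NF2*-1. These shares also rest on the gene model lengths. *SHMT2* alone made up most of the mitochondrial sum. The 3 serine synthesis transcripts together went from 66.3 ± 2.08 to 153.6 ± 5.45 FPKM (SD, n = 3 each).

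Of 21 other enzymes that use or interconvert folates, 14 were tested. At an edgeR adjusted p under 0.05, 4 were higher, 3 lower and 7 did not pass, with a median log2 fold change of 0.10. The shares over all tested genes were 17.7% higher and 16.6% lower, and whether this list differs from them was not tested. *ATIC* and *GART*, which spend 10-formyltetrahydrofolate in purine synthesis, rose with log2 fold changes of 0.65 and 0.60. *MTRR*, which reactivates methionine synthase, rose by 0.35, and *MTFMT*, which formylates the mitochondrial initiator methionyl-tRNA, by 0.34 with an adjusted p of 0.0497 (edgeR). Among those that fell was thymidylate synthase, *TYMS* (-0.39). With DESeq2, the adjusted p of *MTFMT* was 0.107, which did not pass. Methionine synthase itself, *MTR*, was at -0.10 (adjusted p = 0.51, edgeR).

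Enzymes that would remove or make one-carbon units by other mitochondrial routes were scarce. *ALDH1L2*, the mitochondrial formyltetrahydrofolate dehydrogenase, had 0 to 5 counts per library, and its cytosolic counterpart *ALDH1L1* had 0 to 12. *GLDC* and *AMT*, components of the glycine cleavage system, had at most 6 and 5 counts per library. Their partners were better covered, with *GCSH* at 69 to 122 counts and *DLD*, which is shared with other dehydrogenase complexes, at 1222 to 1645 counts, and neither passed the test. With so few counts, no change of *ALDH1L2*, *ALDH1L1*, *GLDC* or *AMT* was detectable at this depth.

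Of 11 genes for folate and serine transport and retention, 8 were tested, and their median log2 fold change was 0.10. Of these, 4 rose, 1 fell and 3 did not pass, where 17.7% of all tested genes rose and 16.6% fell. *SLC1A4*, a neutral amino acid transporter that carries serine, went from 444, 441 and 472 reads to 1163, 1165 and 1006 reads per library. Its log2 fold change of 1.301 ± 0.10 (SE; edgeR adjusted p = 1.9e-10) was close to that of *PHGDH*. *SLC19A1*, the reduced folate carrier, rose by 0.81 ± 0.09 (SE; edgeR adjusted p = 1.0e-07), and *SLC1A5*, a carrier of glutamine and other neutral amino acids, by 0.77.

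Of the enzymes that keep folates in the cell, *FPGS*, which adds glutamate residues to folates, rose by 0.28, and *GGH*, the lysosomal hydrolase that removes them, fell by 0.96 ± 0.14 (SE; edgeR adjusted p = 5.4e-06). Reads of *GGH* went down from 410, 326 and 405 to 208, 175 and 203 per library. The mitochondrial serine carriers *SFXN1* and *SFXN3* were at -0.14 and -0.15 and did not pass the test (adjusted p = 0.20 and 0.15, edgeR). *SLC25A32*, the mitochondrial folate carrier, had 3 to 9 counts per library, and the folate receptors *FOLR1* and *FOLR2* had none.

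Among 11 genes for other uses of serine and glycine, 9 were tested, and their median log2 fold change was 0.23. Of these, 4 rose and none fell, where 17.7% of all tested genes rose and 16.6% fell. Without sgCtrl replicate 2, 2 rose, and with DESeq2 3 did. *CBS*, which joins serine to homocysteine in transsulfuration, went from 463, 719 and 514 reads to 1147, 1364 and 1122 reads per library, and its log2 fold change came to 1.12 ± 0.12 (SE; edgeR adjusted p = 1.2e-07). The phosphatidylserine synthases *PTDSS2* and *PTDSS1* rose by 0.50 and 0.26, and *GCAT*, which acts on threonine-derived carbon and glycine, by 0.34, although the groups of *GCAT* overlapped and its adjusted p with DESeq2 was 0.071. *SPTLC1* and *SPTLC2*, the subunits of the serine palmitoyltransferase that starts sphingolipid synthesis, were at -0.18 and 0.15 and did not pass.

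Of 6 genes listed for the methionine cycle, among them the *AHCY*-related *AHCYL1* and *AHCYL2*, 5 were tested. The median log2 fold change of the tested genes was 0.18, which is the value of *AHCYL2*. Of these, 2 rose, 1 fell and 2 did not pass, where 17.7% of all tested genes rose and 16.6% fell. *AHCY*, which clears S-adenosylhomocysteine, rose by 0.67 ± 0.09 (SE; edgeR adjusted p = 1.5e-06), and *MAT2A*, which makes S-adenosylmethionine, by 0.29. The gene that fell, by 0.32, was *AHCYL1*, whose product regulates an inositol trisphosphate receptor.

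**Figure D4:**
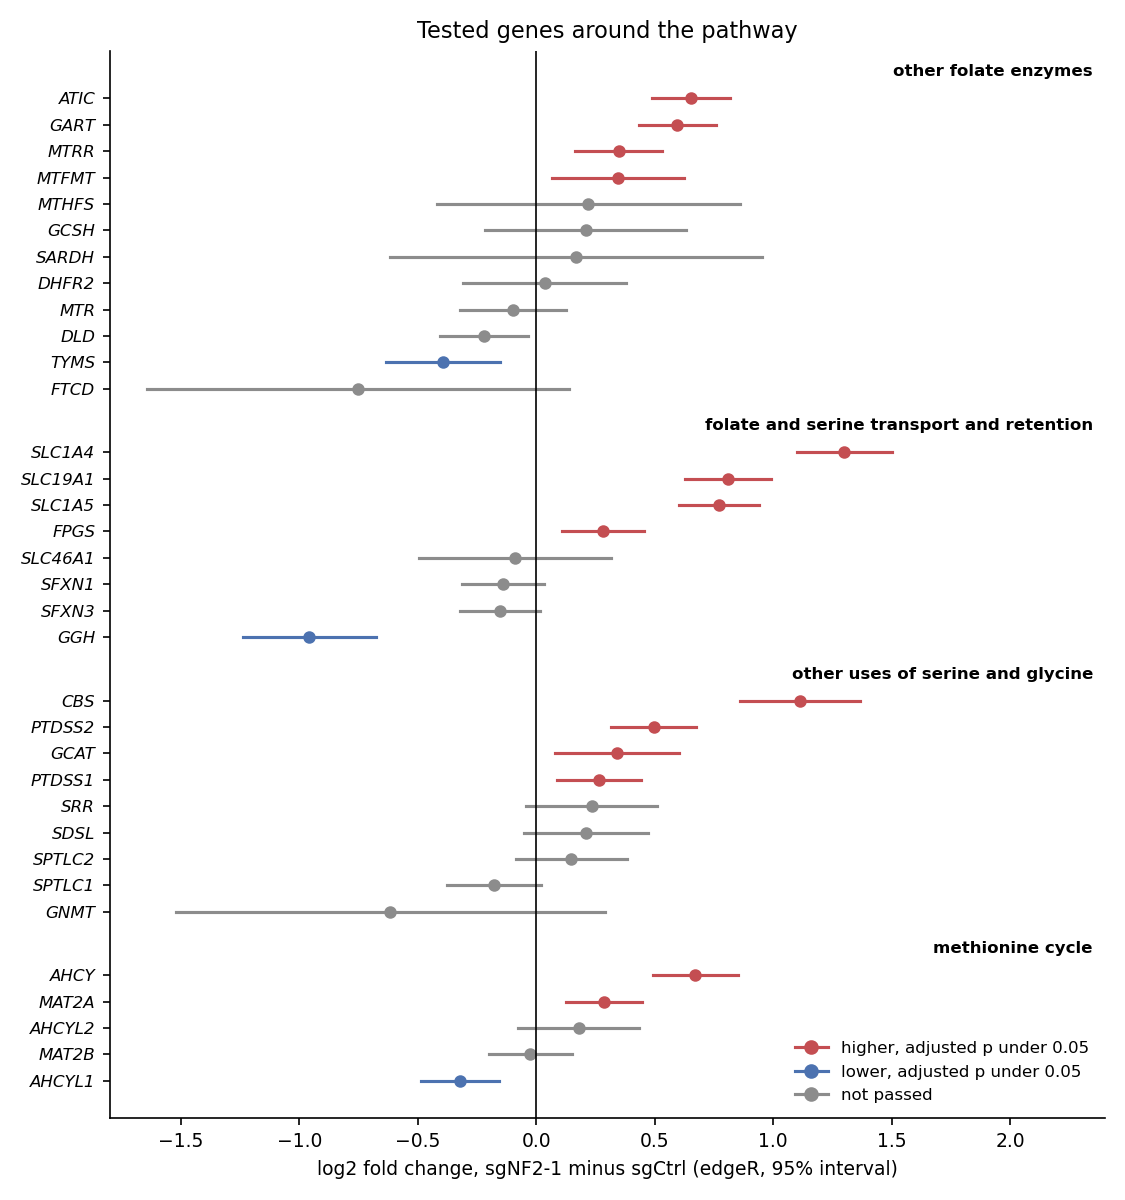
Log2 fold changes (x axis, sgNF2-1 minus sgCtrl, edgeR) with 95% intervals for the tested genes of the 4 surrounding lists that are reported here, one gene per row, in red where higher, in blue where lower and in grey where the adjusted p was not under 0.05. *SLC1A4* at 1.301 and *CBS* at 1.12 lie farthest to the right, and *GGH* at -0.96 is the lowest of the genes that passed.

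The 5 tested genes outside the 9 whose log2 CPM followed that of *PHGDH* most closely over the 6 libraries were *HMGA1*, *LTB4R2*, *DLST*, *PYGB* and *TRMT1*, with Pearson r from 0.998 to 0.999. The libraries of 2 groups make up these points, so r mostly reflects the group difference, and no p is given. *HMGA1*, which encodes a chromatin architectural protein, had a log2 fold change of 1.01. *TRMT1* (a tRNA methyltransferase), *PYGB* (a glycogen phosphorylase) and *DLST* (a subunit of the 2-oxoglutarate dehydrogenase complex) had 0.78, 0.60 and 0.42. *LTB4R2*, at a mean of 1.61 CPM in controls and 2.29 CPM in *NF2*-KO cells, did not pass the test (adjusted p = 0.21, edgeR).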

How the data were processed

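Total RNA from 3 sgCtrl and 3 sg*NF2*-1 H2452 libraries was sequenced in paired-end mode (Illumina NovaSeq). The authors deposited raw counts per gene and FPKM values, which they derived from the counts by gene length and library depth. The submitters' processing notes name HISAT2, StringTie 1.3.3b, featureCounts 1.5.0-p3 and hg38; the strand setting is not given in the sources used here. Counts (14782423 to 17416463 per library) were filtered with filterByExpr (minimum count 10, minimum total 15), leaving 14179 genes, TMM-normalised and tested with edgeR 4.0.16 in R 4.3.3 (quasi-likelihood, two-sided, Benjamini-Hochberg over all tested genes). FPKM were tested with limma 3.58.1 on log2(FPKM + 1) for genes with a mean of at least 0.5. Alternatives included DESeq2 1.42.0, other scalings and filters, a replicate block and leaving out each library. On simulated counts, edgeR recovered 82.3% of genes with an absolute log2 fold change of 1 and 57.3% of those with 0.5. At 0.5, DESeq2 recovered 46.5% and limma on FPKM 28.1%, so moderate changes may go uncalled. Of genes simulated without a change, edgeR called 0.0789%. Named genes were the members, *NF2*, genes of 4 pathway lists led by the largest passing changes, genes that overlap or are named after members, and the 5 most like *PHGDH*; other list genes were named to account for a list. Of the folate enzyme list, 2 genes are included in the counts but not reported here. The members and lists were chosen with earlier results of these data known. No pair of replicates was alike within sampling noise (chi-square per degree of freedom 5.12 to 12.5). Sequences are from RefSeq (GRCh38.p14).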

Additional observations from a re-analysis of the deposited data

How the results depend on the processing

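The 6 higher and 0 lower members were called under each of the 12 alternative fits and library omissions and under both call rules with a fold limit. Across fits lacking 1 library, *PHGDH* stayed between 1.22 and 1.38, *SHMT2* between 0.63 and 0.80 and *MTHFD1L* between 0.97 and 1.01 on the log2 scale. *MTHFD2L* changed sign without passing the test, with 0.0028 without sgCtrl replicate 2 and 0.070 without sg*NF2*-1 replicate 1 in edgeR, and 0.031 without sg*NF2*-1 replicate 1 on log2(FPKM + 1), and its lowest values, both without sg*NF2*-1 replicate 3, were -0.096 and -0.062. The log2 difference of *SHMT2* to *SHMT1* ranged from 0.70 to 0.87 when each library was left out. Genes for other uses of serine and glycine that rose numbered 2 to 4 with each library left out, with 2 without sgCtrl replicate 2. Other list counts stayed within 1.5 times the main ones. Same-numbered replicates did not pair (correlations of deviations -0.0319, 0.0566 and 0.0498). A replicate block left 6 members higher and 0 lower, with *PHGDH* at 1.303 and *SHMT2* at 0.72, changed no call of a member and gave 5199 calls over all genes against 4866 without it. No scaling moved the median of all genes past -0.039 on the log2 scale. Counts limit *MTHFD2L*, whose 206 to 232 reads per library give an interval wider than those of the other members.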
